A study of Mus musculus with 6 samples.

Results

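The genes described here encode the enzymes that write and erase trimethylation of lysine 27 on histone H3 (H3K27me3), together with the partners of the writing enzyme. They were chosen by name for what they do, as the subunits of Polycomb repressive complex 2 and the H3K27 demethylases. Earlier results of these data were known when they were chosen. The 10 members are Kdm6a, Kdm6b, Ezh1, Ezh2, Eed, Suz12, Rbbp4, Rbbp7, Jarid2 and Aebp2, out of 24411 features in the count tables, and every member was detected in every library and entered the test. Both groups were primary microglia (PM) from ICR mice, with brains of 12 mice at postnatal day 3 pooled and the microglia shaken off mixed glial cultures. Both groups received 10 μM GSK-J4, a cell-permeable inhibitor of the demethylases encoded by Kdm6a and Kdm6b. PM treated with GSK-J4 alone (3 libraries) were compared with PM that also received LPS at 10 ng/ml (3 libraries), at 4-h, and the groups are called without LPS and with LPS where values are given. Untreated and LPS-only PM were not analysed here, so the effect of GSK-J4 itself was not measured. Each change is the difference between PM given LPS with the inhibitor and PM given the inhibitor alone. Other differences between these groups are given below. The study describes the libraries as biological replicates made from independent RNA, while the sources used here do not say whether separate cultures were used, and the p-values measure the spread between these libraries.

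H3K27me3 marks genes that are kept silent. Polycomb repressive complex 2 (PRC2) places the mark through either Ezh1 or Ezh2, its alternative catalytic subunits, which are active only when bound to Eed and Suz12, while Rbbp4 or Rbbp7 holds the histone. Jarid2 and Aebp2 define one accessory form of the complex and help to recruit it to chromatin. Kdm6a (UTX) and Kdm6b (JMJD3) remove the methyl groups, and Kdm6b is known as a gene that macrophages switch on when they meet LPS.

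Depth on genes ran from 2597505 to 3472716 counted fragments a library, and 10133 genes passed the filter on low counts. The ribosomal RNA precursor Rn45s took 22.2 to 32.4% of these fragments without LPS and 45.8 to 48.1% with LPS, so fewer fragments were left for other genes in the latter. Without the features Rn45s, Mir6236 and Lars2, 1499693 to 2443344 fragments were left without LPS and 1374377 to 1444886 with LPS. Levels are given as CPM, counts divided by the size of their own library after scaling by TMM. TMM is a factor that aligns the bulk of genes between libraries. The scaled sizes ran from 2421604 in LPS + GSK-J4 replicate 3 to 4455027 in GSK-J4 replicate 2. On this scale 3 counts in a library corresponded to 0.673 to 1.24 CPM. Replicates 1 and 2 of each group were closer to each other than to replicate 3, with chi-square values per degree of freedom of 2.21 without LPS and 2.44 with LPS against 6.27 or more in any pair with replicate 3. These values were taken on raw counts from which Rn45s was not removed. Rn45s took 32.4% in GSK-J4 replicate 3 against 22.2 and 22.3% in GSK-J4 replicates 1 and 2, and its part in the distance was not tested.

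The microglial identity of the samples was checked against markers. All 11 microglial markers were detected in every library, with summed levels of 3467 to 3584 CPM without LPS and 2847 to 2866 CPM with LPS. Of these, Cx3cr1 (log2 fold change -0.48) and Csf1r (log2 fold change -0.46) passed the test as lower, and none was higher. Tmem119, a marker of resident microglia, had between 4 and 31 counts. Markers of other brain cells were present at lower levels, and those that passed the test were higher with LPS. The 8 astrocyte markers summed to 53.9 to 59.4 CPM without LPS and 131 to 159 CPM with LPS, and 3 of the 7 tested rose (Gfap, Aqp4 and Gja1, by 1.70, 1.37 and 1.38 on the log2 scale). Summed levels of the 8 markers of the oligodendrocyte lineage were 182 to 212 and 352 to 402 CPM, and 4 of the 6 tested rose. These calls were lost for Cx3cr1 without GSK-J4 replicate 1 or 2 or LPS + GSK-J4 replicate 2 (edgeR adjusted p = 0.0158, 0.0244 and 0.0228), for Csf1r without replicate 1 or 2 of GSK-J4 or of LPS + GSK-J4 (edgeR adjusted p = 0.0193, 0.0217, 0.0172 and 0.0458) and for the myelin gene Mbp without GSK-J4 replicate 1 (edgeR adjusted p = 0.0243). The 5 fibroblast markers summed to 71.8 to 262 and 132 to 393 CPM, and none of them passed. Only 1 of 4 neuronal markers (Tubb3) and 1 of 3 endothelial markers (Cdh5) were tested, and both rose, while the neuronal gene Rbfox3 had at most 3 counts and the endothelial gene Cldn5 was at 0 in all libraries. The Cdh5 call was lost without GSK-J4 replicate 2 or 3 or LPS + GSK-J4 replicate 2 (edgeR adjusted p = 0.0214, 0.0206 and 0.0140) and without both replicate 3 libraries (edgeR adjusted p = 0.0199). The summed neuronal markers were 6.06 to 7.08 against 14.1 to 16.4 CPM and the endothelial ones 11.2 to 16.3 against 18.0 to 55.3 CPM. These markers moved with the groups in every comparison that follows, and their part in the results was not tested. In bulk RNA, fewer cells of a type and less RNA per cell cannot be told apart.

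Kdm6b was the member with the largest change. Among the 10 members, Kdm6b rose, Kdm6a fell, and the other 8 did not pass the test, which was edgeR's quasi-likelihood test with Benjamini-Hochberg adjustment over all 10133 genes and a threshold of 0.01. Of all genes tested, 8.42% passed as higher and 5.46% as lower, so 1 member in each direction is close to the background and is no property of the set. Kdm6b was the only member that also passed a log2 fold change of 1.5, which 2.95% of all tested genes did in the higher direction. The groups did not overlap for 5 of the 10 members, against 38.2% of all tested genes. The median log2 fold change was -0.04 over the members and -0.00064 over all genes tested.

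**Figure D1:**
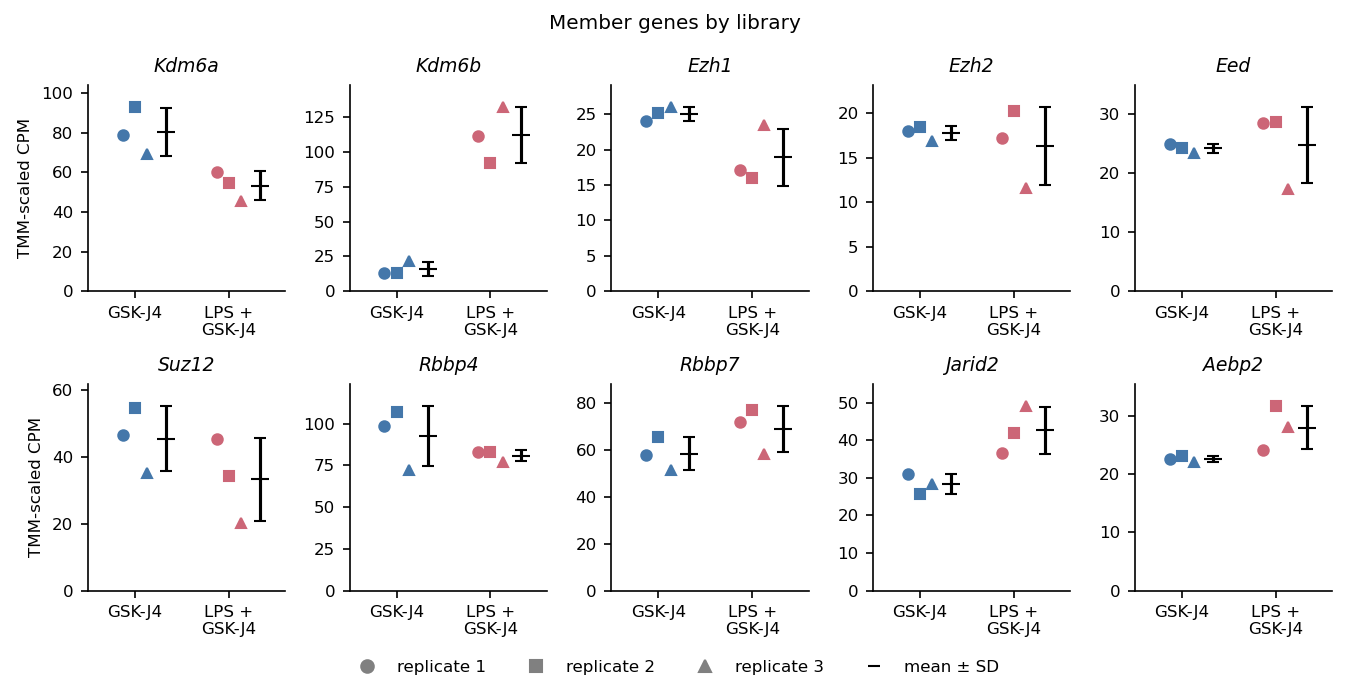
TMM-scaled CPM of each member in the 6 libraries (blue, GSK-J4; red, LPS + GSK-J4; circle, square and triangle, replicates 1, 2 and 3), with the mean and SD of each group in black and a vertical axis from 0 of its own in each panel. Kdm6b lay between 13 and 22 CPM without LPS and between 92.3 and 133 CPM with LPS.

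The demethylase gene Kdm6b, on the minus strand of chromosome 11 (mm10, 69398508 to 69413675), had 13.4, 13 and 22 CPM in the GSK-J4 libraries and 112, 92.3 and 133 CPM in the LPS + GSK-J4 libraries. The lowest library with LPS was far above the highest one without it. In raw fragments these levels were 57, 58 and 60 counts against 286, 242 and 321 counts. The means were 16.2 ± 5.07 CPM (SD, n = 3) and 112 ± 20.1 CPM (SD, n = 3). The fitted change was 7.13-fold, with a 95% interval of 5.31 to 9.59, which is a log2 fold change of 2.83 (SE 0.20, edgeR adjusted p = 3.45e-08). It ranked 65 among all tested genes ordered from the largest rise. The call held in all 15 alternative fits, in which the log2 fold change was between 2.69 and 3.08. In both groups replicate 3 had the highest level of Kdm6b.

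The other demethylase gene, Kdm6a, lies on the plus strand of chromosome X (mm10, 18162575 to 18279936) and went in the opposite direction. It had 79.0, 93.2 and 69.3 CPM without LPS and 60.1, 54.6 and 45.4 CPM with LPS. The groups did not overlap, but the lowest GSK-J4 library and the highest LPS + GSK-J4 library were close to each other. The means were 80.5 ± 12 CPM (SD, n = 3) and 53.4 ± 7.41 CPM (SD, n = 3), and the log2 fold change was -0.60 (95% interval -0.92 to -0.27, SE 0.15). With an edgeR adjusted p of 0.00994 the gene lay just inside the threshold. Without GSK-J4 replicate 1 the edgeR adjusted p was 0.0278, without GSK-J4 replicate 2 it was 0.0763, without LPS + GSK-J4 replicate 2 it was 0.0417 and without LPS + GSK-J4 replicate 3 it was 0.0135. The call was also lost with a filter of at least 10 counts in every library (edgeR adjusted p = 0.0113). It was lost as well without Rn45s, Mir6236 and Lars2 (edgeR adjusted p = 0.0101). The call held in the other 9 alternative fits, such as the DESeq2 Wald test (adjusted p = 0.00617) and no low-count filter (edgeR adjusted p = 0.000357). The direction was the same in all 15 fits, with log2 fold changes between -0.69 and -0.48. The summed microglial markers were also lower with LPS, as given above, and their part in this change was not tested.

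Uty, the paralog of Kdm6a on the Y chromosome, is not a member but shares sequence with it. STAR counted only fragments that mapped to a single place, so fragments from stretches that are identical in both genes are in neither count. Uty had 29.0, 31.6 and 23.5 CPM without LPS and 24.6, 21.8 and 15.7 CPM with LPS, with a log2 fold change of -0.45 that did not pass (edgeR adjusted p = 0.128). Uty and Xist, the RNA of the inactive X chromosome, were both detected in all libraries, so these libraries held RNA of both sexes. None of the 4 tested X- and Y-linked genes passed, Xist among them (log2 fold change -0.20, edgeR adjusted p = 0.265).

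**Figure D2:**
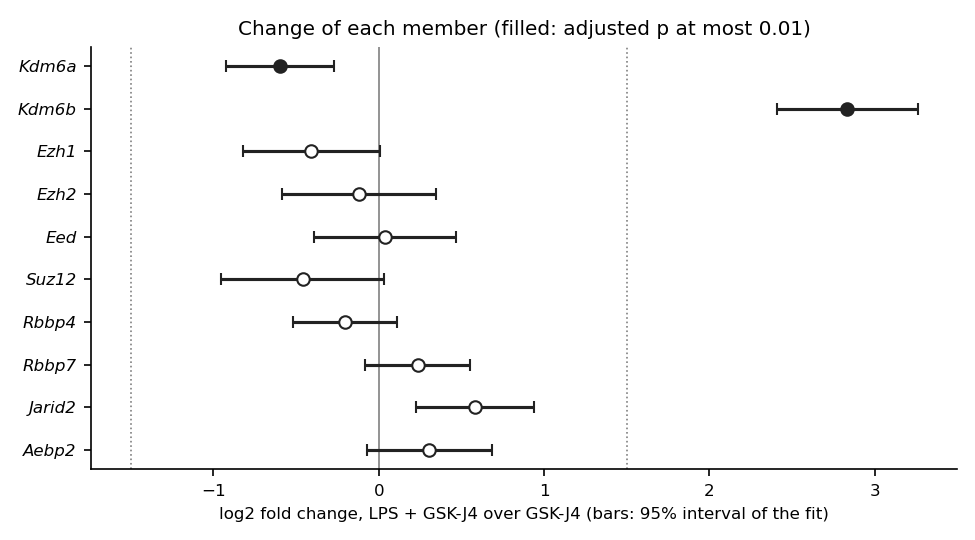
Fitted log2 fold change of each member in LPS + GSK-J4 over GSK-J4 (points) with its 95% interval (bars). Filled points mark an adjusted p of at most 0.01 and dotted lines a log2 fold change of 1.5 in either direction. Kdm6b (2.83) stands beyond the dotted line and Kdm6a (-0.60) between the lines, and the interval of Jarid2 lies above 0 although it missed the adjusted threshold.

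Neither catalytic subunit of PRC2 passed the test. Ezh2, the form known for dividing cells (chromosome 6, minus strand, mm10, 47530139 to 47595341), had 17.9, 18.4 and 16.9 CPM without LPS and 17.2, 20.2 and 11.6 CPM with LPS. The groups overlapped, and LPS + GSK-J4 replicate 3 alone was low. Its log2 fold change was -0.12 (95% interval -0.58 to 0.35, edgeR adjusted p = 0.749), and without that library it was 0.07. Ezh1, the form known for cells that have stopped dividing (chromosome 11, minus strand, mm10, 101191115 to 101226463), had 24.1, 25.1 and 26.0 CPM without LPS and 17.2, 16 and 23.5 CPM with LPS. Every GSK-J4 library was above every LPS + GSK-J4 library, with replicate 3 of the latter close behind. The log2 fold change of Ezh1 was -0.41 (95% interval -0.82 to 0.01, edgeR adjusted p = 0.149). The interval of Ezh2 spans changes in both directions, that of Ezh1 lies almost wholly below 0, and neither reaches a log2 change of 1.5.

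The regulatory subunits were measured as follows. Suz12, the scaffold of the complex (chromosome 11, plus strand, mm10, 79993106 to 80034123), had 46.5, 54.8 and 35.2 CPM without LPS and 45.3, 34.3 and 20.2 CPM with LPS. Its libraries were widely spread within both groups, with replicate 3 the lowest in each, and the log2 fold change of -0.46 did not pass (95% interval -0.95 to 0.03, edgeR adjusted p = 0.176). With 1 library left out the log2 fold change of Suz12 ran from -0.75 without LPS + GSK-J4 replicate 1 (edgeR adjusted p = 0.0328) to -0.21 without LPS + GSK-J4 replicate 3 (edgeR adjusted p = 0.427), and it passed in none of these fits. Eed, the subunit that reads the methyl mark (chromosome 7, minus strand, mm10, 89954654 to 89980983), had 25, 24.2 and 23.5 CPM without LPS and 28.5, 28.6 and 17.3 CPM with LPS. LPS + GSK-J4 replicates 1 and 2 were above the GSK-J4 libraries and replicate 3 below them. The fitted log2 fold change of Eed was 0.04 (95% interval -0.39 to 0.47, edgeR adjusted p = 0.926).

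The paralogs Rbbp4 and Rbbp7 encode histone-binding proteins that also serve in other complexes. Rbbp4 (chromosome 4, minus strand, mm10, 129307100 to 129335370) had 98.6, 107 and 72.2 CPM without LPS and 82.7, 82.8 and 77.2 CPM with LPS, with a log2 fold change of -0.20 (95% interval -0.52 to 0.11, edgeR adjusted p = 0.367). All LPS + GSK-J4 libraries lay inside the range of the GSK-J4 libraries. Rbbp7 (chromosome X, plus strand, mm10, 162760402 to 162779092) had 58.0, 65.8 and 51.7 CPM without LPS and 72.2, 77.1 and 58.2 CPM with LPS. Its log2 fold change was 0.24 (95% interval -0.08 to 0.56, edgeR adjusted p = 0.288), and only LPS + GSK-J4 replicate 3 reached into the range of GSK-J4. Of the 6 core subunits of PRC2, none passed in either direction.

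Jarid2 and Aebp2 were both higher in every LPS + GSK-J4 library than in any GSK-J4 library, yet neither passed the test on the counts of the gene's strand. Jarid2 (chromosome 13, plus strand, mm10, 44729474 to 44921643) had 31.1, 25.8 and 28.2 CPM without LPS and 36.7, 42.0 and 49.1 CPM with LPS. Its log2 fold change was 0.58 (95% interval 0.23 to 0.94, edgeR adjusted p = 0.0194), the nearest of the members that missed the threshold. It passed with unstranded counts (edgeR adjusted p = 0.0089), which add the fragments of the opposite strand. Aebp2 (chromosome 6, plus strand, mm10, 140622663 to 140678472) had 22.6, 23.1 and 22 CPM without LPS and 24.2, 31.7 and 28.1 CPM with LPS. The GSK-J4 libraries were tightly grouped and LPS + GSK-J4 replicate 1 was only just above them, with a log2 fold change of 0.31 (95% interval -0.07 to 0.68, edgeR adjusted p = 0.240).

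Shares within a library do not depend on the scaling between libraries. Kdm6b made up 14.5, 12.3 and 24.1% of the fragments of both demethylase genes in the GSK-J4 libraries and 65.0, 62.9 and 74.5% in the LPS + GSK-J4 libraries. The exact binomial 95% intervals, which cover counting error only, ran from 9.44 to 29.9% over the GSK-J4 libraries and from 57.8 to 78.5% over the LPS + GSK-J4 libraries. The mean share was 17.0% ± 6.28 (SD, n = 3) without LPS and 67.4% ± 6.18 (SD, n = 3) with it. A 2-sided exact permutation test gave p = 0.1, the smallest that 3 libraries against 3 can give. Per exon length the mean shares were 19.7 and 71.4%, so Kdm6a supplied most demethylase transcripts without LPS and Kdm6b most of them with LPS.

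Such a shift was not seen between the methyltransferases. Ezh2 made up 42.7, 42.3 and 39.3% of the fragments of Ezh1 and Ezh2 without LPS and 50, 55.8 and 32.9% with LPS. The LPS + GSK-J4 libraries lay on both sides of the GSK-J4 libraries, and the means of 41.4% ± 1.84 (SD, n = 3) and 46.2% ± 11.9 (SD, n = 3) did not differ beyond that spread (2-sided exact permutation p = 0.5). Of the fragments of all 4 enzyme genes, the demethylases held 68.8, 70.9 and 68.0% without LPS and 83.3, 80.2 and 83.5% with LPS. These groups did not overlap, with means of 69.2% ± 1.5 (SD, n = 3) and 82.4% ± 1.86 (SD, n = 3) and again the smallest exact permutation p of 0.1.

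**Figure D3:**
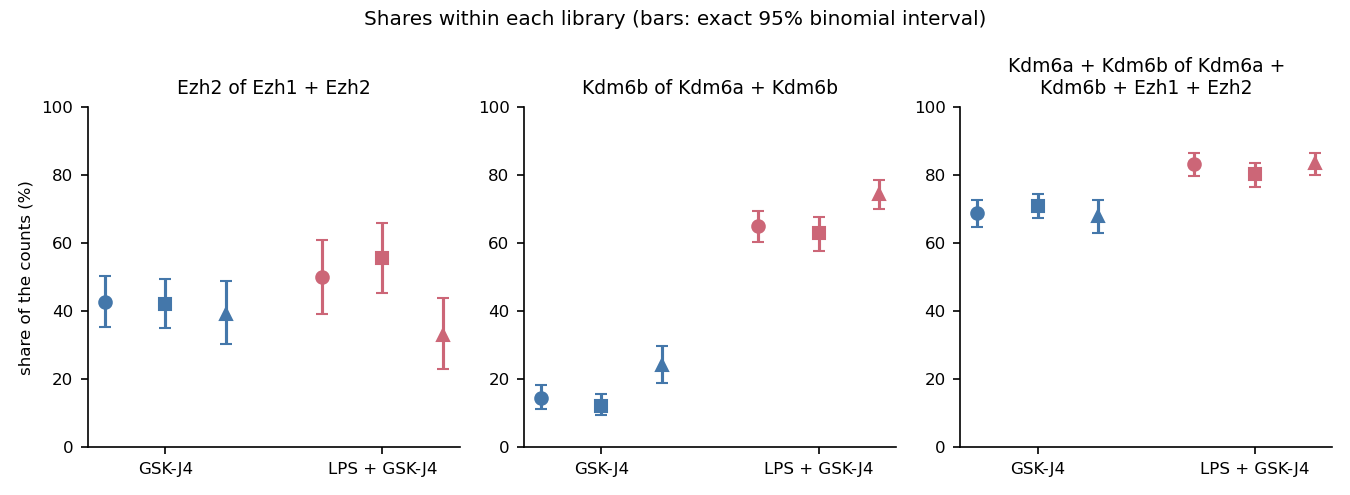
Share of fragments, in percent, within each library for Ezh2 among Ezh1 and Ezh2 (left), Kdm6b among both demethylase genes (middle) and both demethylase genes among the 4 enzyme genes (right), with exact 95% binomial intervals (bars). The middle panel has the widest gap between GSK-J4 and LPS + GSK-J4, with means of 17.0 and 67.4%, and in the left panel the groups overlap.

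Genes can be ranked against each other only per length. In CPM per kilobase of exon, Rbbp7 had the highest level in both groups, 20.1 ± 2.42 without LPS and 23.8 ± 3.36 with LPS (SD, n = 3 each). In GSK-J4 it was followed, on this scale, by Rbbp4 (10.6), Kdm6a (9.60) and Suz12 (9.20), whose ranges over libraries overlapped from one to the next. Eed (6.33) and Ezh1 (3.37) stood apart from their neighbours in that order. Jarid2 (2.92), Ezh2 (2.66), Kdm6b (2.32) and Aebp2 (2.29) closed the order and overlapped from one to the next. In LPS + GSK-J4 the level of Kdm6b per kilobase was 16.1 ± 2.89 (SD, n = 3), below Rbbp7 and above Rbbp4 (9.25 ± 0.37) without overlap. Rbbp4, Suz12 (6.73), Eed (6.48) and Kdm6a (6.37) came next and overlapped from one to the next, followed by Jarid2 (4.39). The range of Jarid2, 3.78 to 5.06, overlapped neither neighbour in the order, Kdm6a and Aebp2, but reached into those of Suz12 and Eed. Aebp2 (2.84), Ezh1 (2.54) and Ezh2 (2.44) had the lowest levels per kilobase and could not be separated from their neighbours among them. Kdm6b thus moved from rank 9 to rank 2 of the 10 members.

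**Figure D4:**
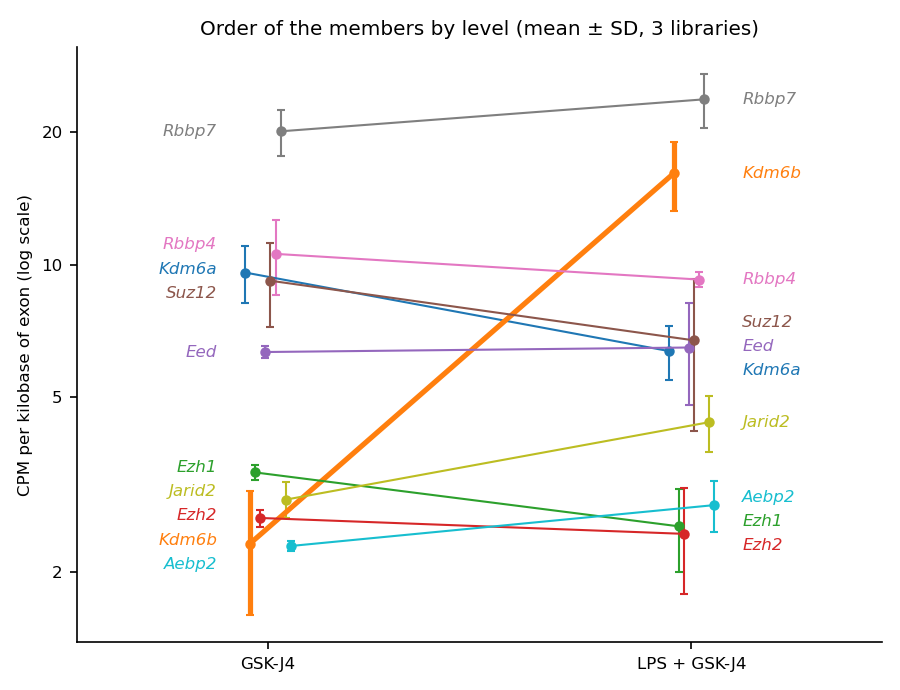
Level of each member in CPM per kilobase of exon (vertical log axis; mean and SD of 3 libraries) in GSK-J4 and LPS + GSK-J4. The line of Kdm6b (thick) crosses those of most other members, from 2.32 to 16.1, while Rbbp7 remains the highest.

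Promoter sequences of Kdm6a, Ezh2 and Suz12 are shown as a description, and no link to a change in expression was tested. RefSeq promoters (GRCm38.p6, from 250 bases before to 50 after each start site) were at hand for 9 of the 10 members, all but Kdm6b. The 120 bases before the start of Kdm6a, the member that fell, held none of the motifs searched and are printed on the plus strand of chromosome X (chrX:18162455-18162574), with a GC content of 61.67%. Each motif was searched on both strands. For the E2F form TTTGGCGC, found in 0.514% of 32851 promoters, the one match among the members was in Ezh2 (minus strand, chr6:47595001-47595052), and for the E2F form TTTCCCGC, found in 1.07%, it was in Suz12 (plus strand, chr11:79992862-79992919). E2F factors drive genes of the cell cycle, and these genes are among the subunits that dividing cells are known to raise. Capitals mark the matched letters.
Kdm6a: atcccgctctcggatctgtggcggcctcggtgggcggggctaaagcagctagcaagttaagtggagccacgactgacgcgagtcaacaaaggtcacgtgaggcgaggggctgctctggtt
Ezh2: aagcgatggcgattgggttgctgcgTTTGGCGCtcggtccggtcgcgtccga
Suz12: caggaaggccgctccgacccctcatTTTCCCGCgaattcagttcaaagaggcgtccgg

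No member promoter in the table held the NF-kB form (GGGA, any base, TTTCC), with matches in 0.411% of all promoters, the AP-1 form TGANTCA (7.81%), the cAMP response form TGACGTCA (1.79%) or the interferon response form (GAAA, any 2 bases, GAAA), with matches in 3.44%. The CCAAT box was matched in 7 members (Ezh2, Eed, Suz12, Rbbp4, Rbbp7, Jarid2 and Aebp2) and in 37.4% of all promoters, and not in Kdm6a or Ezh1. Several promoters were searched for Jarid2 (2) and Aebp2 (3), and a match in any of them counted for the member. The percentages are shares of single promoters, so the count of members and these shares are not like for like. These are matches of letters within short windows and were not tested as binding sites.

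The other genes of the Polycomb system, of its counterparts and of processes tied to them were taken as lists. Over all these lists outside the members, 82 genes were tested, with a median log2 fold change of 0.05. Of these, 5 rose (6.10%) and 4 fell (4.88%), close to the shares of all genes given above. The lists pooled here include proliferation genes, other complexes with Rbbp4 and Rbbp7 and genes tied to JMJD3 in macrophages, without the cell type markers. Of the genes that rose, Asxl3 alone is from a Polycomb list, and Chaf1b, Mki67, Pcna and Ccl22 are from those other lists. None of the remaining PRC2 partners rose. Of 4 tested, Lcorl, whose locus encodes a partner of PRC2, fell by 1.44 on the log2 scale (edgeR adjusted p = 0.000471), from 43.7 ± 9.43 to 16.2 ± 6.28 CPM (SD, n = 3 each).

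PRC1, the complex that ubiquitinates histone H2A and binds the mark of PRC2, had 25 tested genes, of which none rose and 1 fell. The gene that fell was Mga, a DNA-binding subunit of a variant PRC1 and the most highly counted gene of the list, from 218 ± 19.5 to 111 ± 17.3 CPM (SD, n = 3 each; log2 fold change -0.97, edgeR adjusted p = 6.27e-05). The median over the list was 0.20, with 16 genes above and 9 below 0. In the deubiquitinase complex PR-DUB, which removes that ubiquitin, 1 of 8 genes rose and 1 fell, both from the Asxl family of its regulatory subunits. Asxl3 was at 2.08 ± 0.460 CPM without LPS and 7.0 ± 1.48 CPM with LPS (SD, n = 3 each), from 7 to 9 counts against 15 to 21 counts, with a log2 fold change of 1.77 (edgeR adjusted p = 0.0022). The Asxl3 call was lost in the DESeq2 Wald test (adjusted p = 0.0171), without GSK-J4 replicate 1 (edgeR adjusted p = 0.0154) and without GSK-J4 replicate 2 (edgeR adjusted p = 0.0123). Asxl2 fell by 0.62 on the log2 scale (edgeR adjusted p = 0.00514), and leaving out GSK-J4 replicate 1 or 2 or LPS + GSK-J4 replicate 1 or 2 ended this call, with edgeR adjusted p values of 0.0403, 0.0275, 0.0143 and 0.0227.

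**Figure D5:**
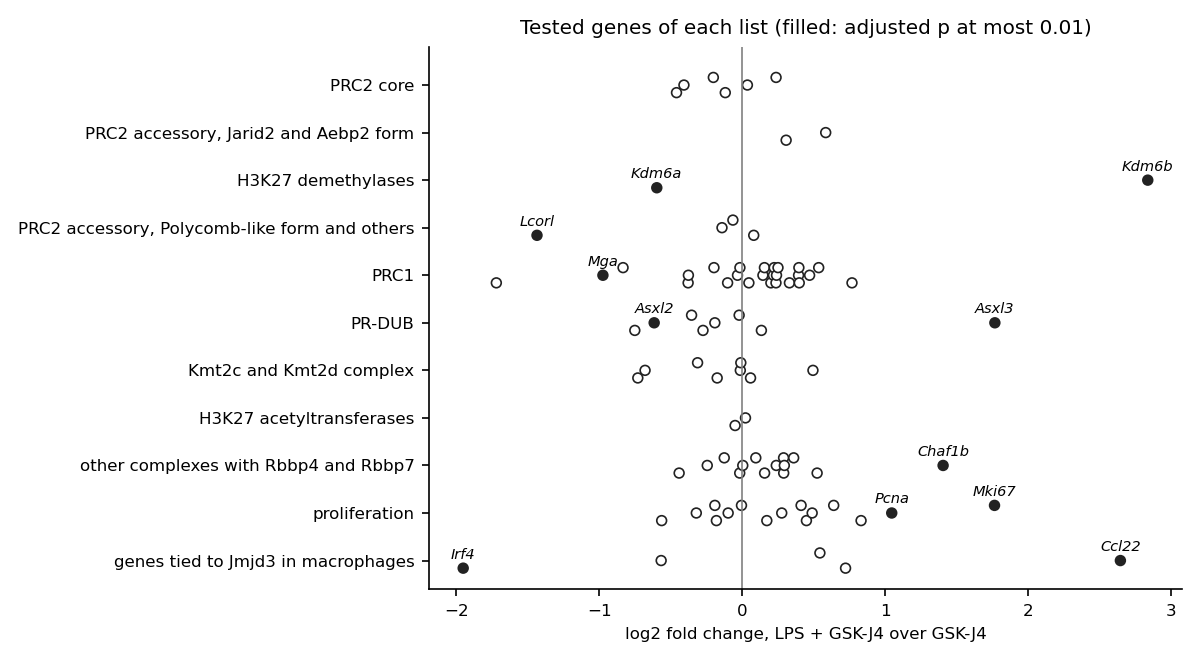
Fitted log2 fold change of every tested gene of the lists shown (points), with the genes of an adjusted p of at most 0.01 filled and named. The median of all tested genes is a grey line, and vertical offsets within a list only separate the points. Uty, the X- and Y-linked list and the cell type markers are not shown. Most points are open and lie within 1 of the grey line, and Kdm6b (2.83) and Ccl22 (2.64) lie farthest to the right.

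The complexes of Kmt2c and Kmt2d, methyltransferases of lysine 4 with which Kdm6a is associated, had no gene that passed among 8 tested. Kmt2c, their most highly counted gene, was at 97.3 ± 1.22 CPM without LPS and 101 ± 11.8 CPM with LPS (SD, n = 3 each; log2 fold change 0.06). Neither acetyltransferase of lysine 27, Ep300 or Crebbp, passed. Crebbp was at 139 ± 5.94 and 141 ± 12.3 CPM (SD, n = 3 each), with a log2 fold change of 0.02.

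Of the other complexes that use Rbbp4 and Rbbp7, 1 of 14 tested genes rose. It was Chaf1b, a subunit of the chromatin assembly factor that loads histones behind the replication fork, from 6.99 ± 1.36 to 18.5 ± 1.98 CPM (SD, n = 3 each; log2 fold change 1.40, edgeR adjusted p = 0.000443). Chd4, the remodeller of the NuRD complex and the most highly counted of the list, was at 234 ± 7.25 and 261 ± 12.9 CPM (SD, n = 3 each) and did not pass (log2 fold change 0.16). In the list of proliferation genes 2 of 15 rose. Mki67, a marker of cycling cells, went from 14.1 ± 3.97 to 46.9 ± 2.98 CPM (SD, n = 3 each; log2 fold change 1.76, edgeR adjusted p = 8.01e-06), and Pcna, the sliding clamp of DNA replication, from 64.8 ± 5.08 to 134 ± 10.1 CPM (SD, n = 3 each; log2 fold change 1.04, edgeR adjusted p = 1.86e-05). The other 13 tested genes of the list, such as Top2a (log2 fold change -0.18) and Cdk1 (log2 fold change 0.17), did not pass. Several astrocyte and oligodendrocyte markers rose between the same libraries, and their part in these changes was not tested.

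Among genes tied to JMJD3 in macrophages, 1 of 5 tested rose and 1 fell. Irf4, a transcription factor of alternative macrophage activation, had 52, 72 and 35 counts without LPS and 12, 9 and 6 counts with LPS, and fell by 1.95 on the log2 scale (edgeR adjusted p = 0.000203). The chemokine gene Ccl22 had 4, 5 and 2 counts without LPS and 12, 12 and 23 counts with LPS, a log2 fold change of 2.64 (edgeR adjusted p = 0.000687) that rests on few fragments. The mannose receptor gene Mrc1, the most highly counted of the list, was at 56.1 ± 7.50 and 38.0 ± 6.57 CPM (SD, n = 3 each) and missed the threshold (log2 fold change -0.57, edgeR adjusted p = 0.0213). Chil3 and Retnla were at 0 in all libraries.

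Hox genes, the classical targets of Polycomb silencing, were close to undetectable. Of 39 Hox genes, 22 had no count in any library, 36 had at most 3 counts in every library, and none reached the filter for testing. The 3 that exceeded 3 counts in some library, named here after their values were seen, were Hoxb3, Hoxb4 and Hoxd12. The highest count of any of them was 9, for Hoxb4 in GSK-J4 replicate 2, and Hoxb4 had 5, 9 and 3 counts without LPS and 1, 0 and 0 counts with LPS. Changes below this level were not detectable at this depth.

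For the 4 enzyme genes, the tested genes with the most similar pattern were found by the root mean square difference of log2 CPM over the 6 libraries, after centring each gene on its mean. The nearest to Kdm6b were Nr4a1 (0.163), Phlda1 (0.203) and Hivep3 (0.224), which had log2 fold changes of 2.58, 2.92 and 2.83. The nearest to Kdm6a were Arl8b (0.0383), Ythdf3 (0.0454) and Adam10 (0.0542), with log2 fold changes of -0.64, -0.60 and -0.54. Abcg1, Cacfd1 and Ctsa were nearest to Ezh1, with differences of 0.0386, 0.0507 and 0.0598, and BC031181, Dcaf10 and Tial1 to Ezh2, with differences of 0.0379, 0.0605 and 0.0634. With 6 libraries, each with a depth and scaling that apply to all its genes, this likeness is a description.

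Between 28 and 476 fragments per library lay on the sense strand of each member. Pooled over the libraries of a group, fragments on the opposite strand were at most 3.85% of a member's total for 8 members, and in LPS + GSK-J4 they were 9.78% for Jarid2 and 11.6% for Aebp2. Annotated genes on the opposite strand overlap exons of Kdm6b, Ezh2, Eed, Suz12, Rbbp4 and Rbbp7, and the kit keeps strand, so their fragments are counted apart. Kdm6b had 0 to 4 fragments per library on the opposite strand.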

How the data were processed

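RNA-seq libraries of PM were compared for LPS + GSK-J4 against GSK-J4, 3 libraries each, with groups taken from the sample titles. RNA was depleted of rRNA, and libraries were made with a directional kit. The authors trimmed reads with Trimmomatic 0.33, aligned them to mm10 with STAR 2.5.1 and deposited raw counts of fragments per gene in 3 columns (unstranded and both strands), of which the reverse-strand column was used. CASAVA 1.8.2 and DESeq2 are also named in the submitters' processing notes. The annotation used for counting is not given in the sources used here.

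Counts were scaled by TMM, filtered with filterByExpr (minimum count 10, minimum total 15) and tested in edgeR 4.0.16 (R 4.3.3, limma 3.58.1) with the robust quasi-likelihood test, with Benjamini-Hochberg adjustment over 10133 genes. A gene passed at an adjusted p of at most 0.01. Intervals of fold changes are the fit's 95% intervals. Exon lengths and positions are from GENCODE vM21 and promoters from RefSeq. The script was tested on simulated data. Depth was 2597505 to 3472716 fragments on genes per library.

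The members and gene lists were chosen with earlier results of these data known. Named were all members, the list genes that passed, the most highly counted gene of each list, marker sums and, for 4 enzymes, the 3 nearest genes; Ep300, Uty, Xist, Tmem119 and the genes given as examples of no call were named besides. The X- and Y-linked list was added after the data were seen. Same-numbered libraries had correlations of their deviations from the group means of -0.01, 0.12 and 0.30, the last for replicate 3. Pairs of different numbers had correlations from -0.29 to 0.24. The numbers were not taken to pair samples, and a link between same-numbered libraries was not tested. Alternatives were DESeq2 1.42.0 (Wald test, and its size factors), other filters, unstranded counts and removal of the features Rn45s, Mir6236 and Lars2. A replicate block, leaving out each library, and a threshold of 0.05 were also used. Total-count scaling without Rn45s, Mir6236 and Lars2 and leaving out both replicate 3 libraries were added after the data were seen. Further steps ran in Python 3.11.15 (pandas 2.3.3, numpy 2.4.6, scipy 1.17.1, matplotlib 3.10.9). No library was left out of the reported values.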

Additional observations from a re-analysis of the deposited data

Results flagged for a closer look

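Fragments on the strand opposite to a gene were not part of the comparisons. For Jarid2 and Aebp2 these fragments were more frequent in every LPS + GSK-J4 library than in any GSK-J4 library, which was noticed after the data were seen. Jarid2 had 8, 5 and 6 such fragments in GSK-J4 and 14, 12 and 9 in LPS + GSK-J4, a mean count of 11.7 in the latter, or 1.74 ± 0.554 against 4.59 ± 0.874 CPM (SD, n = 3 each). Aebp2 had 3, 3 and 2 fragments in GSK-J4 and 10, 10 and 8 in LPS + GSK-J4, a mean count of 9.33 in the latter, or 0.705 ± 0.0301 against 3.67 ± 0.324 CPM (SD, n = 3 each). On the opposite strand lay 9.78% of the Jarid2 fragments and 11.6% of the Aebp2 fragments in LPS + GSK-J4, pooled over libraries. The annotation used here has no gene whose exons overlap those of either member on that strand. These are few fragments, no test was run on them, and their source was not tested.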

How the results depend on the processing

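Kdm6b passed in all 15 alternative fits and Kdm6a in 9, and no alternative changed the direction of either. Jarid2 passed with unstranded counts (edgeR adjusted p = 0.0089) and with the replicate block (edgeR adjusted p = 0.00274), and no other member passed in any fit at 0.01. The endothelial marker Cdh5 lost its call with the replicate block (edgeR adjusted p = 0.0813). The members that passed as higher numbered 2 with the replicate block, with unstranded counts and at a threshold of 0.05. The members that passed as lower numbered 0 with at least 10 counts in every library and without Rn45s, Mir6236 and Lars2, and 0 to 1 when libraries were left out in turn. Ezh2 ran from -0.30 to 0.071 with 1 library left out, positive without LPS + GSK-J4 replicate 3, and was 0.050 without replicate 3 of both groups. Eed reversed to -0.010 in the DESeq2 Wald test and with DESeq2 size factors, was -0.018 without the low-count filter, and ran from -0.078 to 0.23 with 1 library left out, negative without LPS + GSK-J4 replicate 1 (-0.075) or 2. The difference in the demethylase share was 15.4 percentage points per exon length, against 13.1 in counts, and that in the Ezh2 share ran from 0.0436 to 11.5 points with 1 library left out. Of the pathway genes outside the members, 5 rose and 4 fell. The replicate block gave 8 and 9, a threshold of 0.05 gave 8 and 9, leaving out both replicate 3 libraries gave 9 and 7, at least 10 counts in every library gave 3 that rose, and no low-count filter gave 8 that fell. With 1 library left out, 4 to 8 rose and 3 to 5 fell. Of all genes, 853 rose and 553 fell. At 0.05 these were 1386 and 1004, without the low-count filter 858 fell, with the replicate block 1016 fell, with 1 library left out 312 to 679 fell, without both replicate 3 libraries 757 fell, and with at least 10 counts in every library 176 genes passed the fold threshold as higher, against 299. The cause was not tested. Same-numbered libraries did not all deviate together, so the block is no test of a pairing. Depth limits the low genes most, since few fragments remained beside Rn45s in LPS + GSK-J4.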
